A study of Mus musculus with 6 samples.

Results

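The genes that build asparagine-linked glycans (N-glycans) and glycosylphosphatidylinositol (GPI) anchors were followed across 3 kinds of cultured mouse stem and progenitor cells. They were defined by a rule on gene symbols, which was chosen with earlier results of these data known. The rule took the numbered Alg and Dpm genes, the Mgat, Man1 and Man2 families and the Pig genes with a single-letter suffix. It also took Stt3a, Stt3b, Ddost, Rpn1, Rpn2, Mogs, Ganab and Dpagt1. Of 64 mouse symbols that the rule matched, 41 could be matched to a named probe of the array, and they were represented by 50 of its 41006 probes, of which 25577 could not be named. All 41 were tested, among 35768 genes in all, of which 12147 could be given a name. The other 23 symbols, among them Alg6, Mgat2, Piga, Pigl and Pigm, were not analysed here.

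Multipotent adult progenitor cells (MAPC) are cultured from bone marrow as a line that attaches to the dish. Here they came from marrow that was depleted of CD45+ and Ter119+ blood cells at week 4 and plated at 10 cells per well, and both arrays carry the label of the same clone, described as high in Oct4. They had passed 80 population doublings in 5% oxygen and 2% serum with EGF, PDGF-BB and LIF. The embryonic stem cells (ESC) were of C57BL/6 origin, were kept on irradiated mouse embryonic fibroblasts in 15% serum with LIF, and were passed to feeder-free plates ahead of RNA isolation. The neurospheres (NS) were forebrain cells of C57BL/6 embryos at E11.5, grown with bFGF and EGF. Each kind of cell was measured on 2 arrays, which the design calls biological replicates, and every array also held the same reference RNA, a pool of 11 mouse cell lines. Cell type, medium, serum and oxygen differ together between the groups, so their parts cannot be told apart.

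An N-glycan is first assembled as a single oligosaccharide on the membrane lipid dolichol in the endoplasmic reticulum (ER), moved in one piece onto asparagines of nascent proteins by the oligosaccharyltransferase, and then trimmed by glucosidases and mannosidases. In the Golgi, N-acetylglucosaminyltransferases of the Mgat family start the branches that make complex glycans. GPI anchors are built on phosphatidylinositol in the same membrane by the Pig proteins, share the mannose donor dolichol-phosphate-mannose with the N-glycan route, and tether many proteins to the cell surface.

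All values below are log2 ratios of sample over reference, or differences between the group means of such ratios with their standard error (SE) from a limma fit. A gene was called when its Benjamini-Hochberg adjusted p, taken over all genes tested, was under 0.05, and where a gene had several probes the brightest was used. Between 91.9% and 99.6% of an array's spots were well above background, and precision was limited by there being 2 arrays a group. All 41 members were well above background on all 6 arrays, except Mgat4a and Mgat4c, which were so on 5 of 6. Of the label checks, Pou5f1 (Oct4) stood at 0.90 and 1.33 in MAPC, 3.38 and 2.90 in ESC and -0.25 and -0.29 in NS. The pan-leukocyte gene Ptprc (CD45) was under the brightest negative control spot in MAPC and NS. That spot read 39.9 and 165 on the MAPC arrays, 10.2 and 83.3 on the ESC arrays and 30.5 and 69.1 on the NS arrays. The Ptprc ratios were -2.77 and -2.80 in MAPC, -3.04 and -3.10 in ESC and -2.67 and -3.13 in NS, and no comparison was called. Esrrb was not higher in ESC than in the other groups, nor Sox1 in NS.

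MAPC had the highest ratios for most of the N-glycan and GPI genes. Against ESC, 24 of 41 genes were higher in MAPC (58.5%) and 3 were lower (7.32%), and 14 were not called. Among all genes tested, 15.9% were higher and 22.1% lower in this comparison (38.0% in either direction), and among genes with a name 21.0% were higher and 29.3% lower. The median difference was 0.37 over the members and 0.01 over all genes. In bulk RNA of this kind, fewer cells of a type and less RNA per cell cannot be told apart. Of the 41, 11 were at least 2-fold higher in MAPC and 0 were at least 2-fold lower, beside 2.94% and 5.62% of all genes. The size of these differences depended on the background correction. Without background subtraction 4 members (Alg5, Man1a, Rpn1 and Stt3a) were at least 2-fold higher, Dpagt1 stood at 0.76, Mgat1 at 0.63, Alg1 at 0.59 and Alg8 at 0.50, all still called, and the median over the members was 0.24. With median centring in place of loess, 7 members were at least 2-fold higher.

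Against NS, 27 of 41 were higher in MAPC (65.9%), 4 were lower (9.76%) and 10 were not called. All genes gave 21.2% higher and 22.5% lower (43.7% in either direction), and named genes gave 28.8% and 26.3%. The median difference was 0.38 over the members and 0.03 over all genes. At least 2-fold differences were seen in 6 genes that were higher in MAPC and in 1 that was lower, where all genes gave 4.44% and 6.99%. The first of these counts was 11 with the intensities processed by the scanner software or with a normexp offset of 0, and 4 without background subtraction. The comparisons against ESC and against NS use the same 2 MAPC arrays.

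Between ESC and NS the members stood closer together: 8 were higher in ESC (19.5%), 11 were lower (26.8%) and 22 were not called. This share of called genes, 46.3%, was nearer to that of all genes, 38.2%, of which 19.8% were higher and 18.4% lower. Named genes gave 29.4% higher and 21.6% lower. The median difference was -0.03, and of the at least 2-fold differences 0 were higher in ESC and 1 was lower, with 4.72% and 4.27% among all genes.

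Read array by array, both MAPC arrays lay above the other 4 for 27 of 41 members (65.9%), beside 24.7% of the 35417 genes measured on all arrays. Both lay below the other 4 for Man2c1, Mgat4b and Pigc only, 3 of 41 (7.32%), beside 20.1%. Both ESC arrays were above all others for 0 members and below them for 14, where all genes gave 17.6% and 12.8%. Both NS arrays were above for 3 (Mgat3, Pigc and Pigp) and below for 12, where all genes gave 20.6% and 22.2%. The 2 arrays of a group differed by a median of 0.061 in MAPC, 0.095 in ESC and 0.052 in NS over the members, and by at most 0.370.

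**Figure D1:**
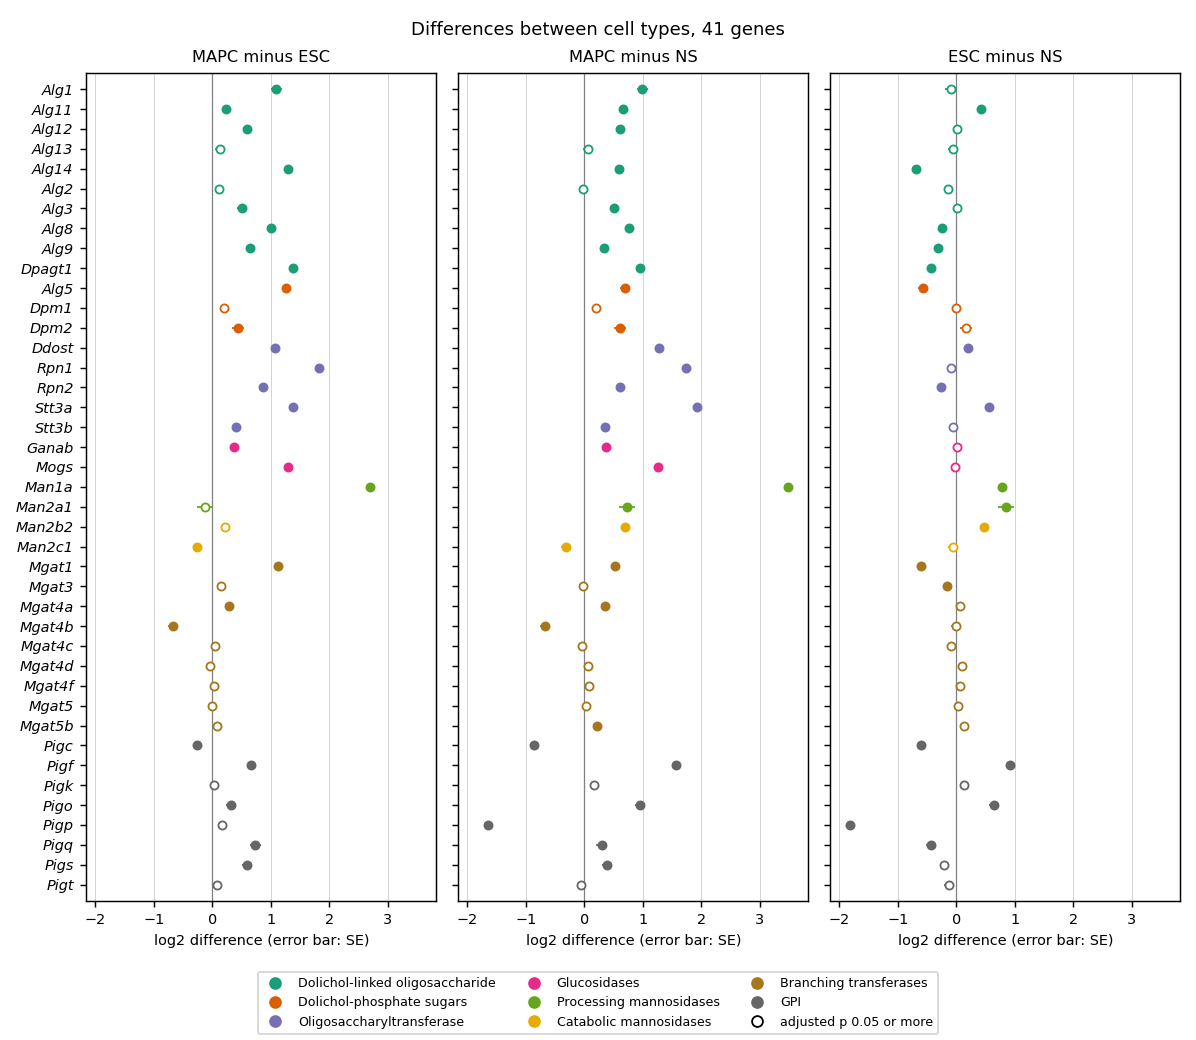
Difference between group means (log2) for each of the 41 genes, ordered by step of the pathway, for each pair of cell types, with bars for the SE of the limma fit and filled points for called genes. Most points of the MAPC comparisons lie to the right of 0, up to 3.48 for Man1a, while those of ESC minus NS lie on both sides.

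The dolichol-linked oligosaccharide is made by Dpagt1 and the Alg enzymes other than Alg5. Of these genes, 8 of 10 were higher in MAPC than in ESC, and 8 of 10 were higher than in NS, with none called lower in either comparison. All genes gave 15.9% higher and 22.1% lower against ESC, and 21.2% and 22.5% against NS. The same shares stand beside the counts of each step below. Dpagt1, which puts the first sugar onto dolichol phosphate and is the target of tunicamycin, read 1.28 and 1.24 in MAPC, -0.14 and -0.11 in ESC and 0.37 and 0.26 in NS. The MAPC arrays were the highest pair and the ESC arrays the lowest, with no overlap. The difference was 1.38 ± 0.059 (SE) from ESC, which is 2.61-fold (adjusted p = 1.17e-06), and 0.94 ± 0.059 from NS (adjusted p = 6.15e-06). ESC were in turn lower than NS by 0.44 (difference -0.44, adjusted p = 0.000593).

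Alg14, the membrane anchor of the enzyme that adds the second N-acetylglucosamine, followed the same order, with 1.65 and 1.63 in MAPC, 0.31 and 0.39 in ESC and 1.11 and 0.97 in NS. It was 2.45-fold higher in MAPC than in ESC (1.29 ± 0.064, adjusted p = 2.57e-06) and 0.60 higher than in NS (adjusted p = 0.000135). Its catalytic partner Alg13 was not called in any comparison. Alg1, which adds the first mannose, read 1.44 and 1.39 in MAPC, 0.32 and 0.32 in ESC and 0.58 and 0.26 in NS. MAPC stood above both other groups, which overlapped each other, by 1.09 ± 0.098 from ESC (adjusted p = 6.28e-05) and 0.99 ± 0.098 from NS (adjusted p = 8.20e-05).

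The later mannose and glucose steps lay in the same direction. Alg3, which adds the first mannose on the lumenal side, gave 1.04 and 0.94 in MAPC, 0.60 and 0.39 in ESC and 0.46 and 0.50 in NS. MAPC was above both, by 0.50 ± 0.079 from ESC (adjusted p = 0.00153) and 0.51 ± 0.079 from NS (adjusted p = 0.00109). The first of these calls was lost with the intensities processed by the scanner software (adjusted p = 0.0636). The mannosyltransferases Alg9 and Alg12 were 0.64 and 0.59 higher in MAPC than in ESC, and 0.33 and 0.61 higher than in NS. Second probes of Alg3 (0.40 and 0.55) and Alg9 (0.42 and 0.31) gave the same directions. That of Alg12 gave 0.20 against ESC (adjusted p = 0.0212) and 0.12 against NS. These second probes were dim: those of Alg3 and Alg9 were above the brightest negative control spot on 3 of 6 arrays, and that of Alg12 on 5.

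Alg8, a glucosyltransferase that caps the oligosaccharide, read 1.37 and 1.36 in MAPC, 0.40 and 0.31 in ESC and 0.55 and 0.64 in NS. It was 2.01-fold higher in MAPC than in ESC (1.01 ± 0.061, adjusted p = 7.12e-06) and 0.77 higher than in NS. The cytosolic-side mannosyltransferase Alg11 was 0.66 higher in MAPC than in NS (adjusted p = 0.000202), and its difference of 0.24 from ESC (adjusted p = 0.0434) kept its call in 5 of 15 alternative analyses and ranged from 0.055 to 0.517 over them. With a replicate block its adjusted p = 0.0521. Alg2, which acts at the same stage, was not called in any comparison and ranged from -0.13 to 0.05 over the 6 arrays. For Alg3 and Alg11, 3 of the 6 arrays were above the brightest negative control spot.

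**Figure D2:**
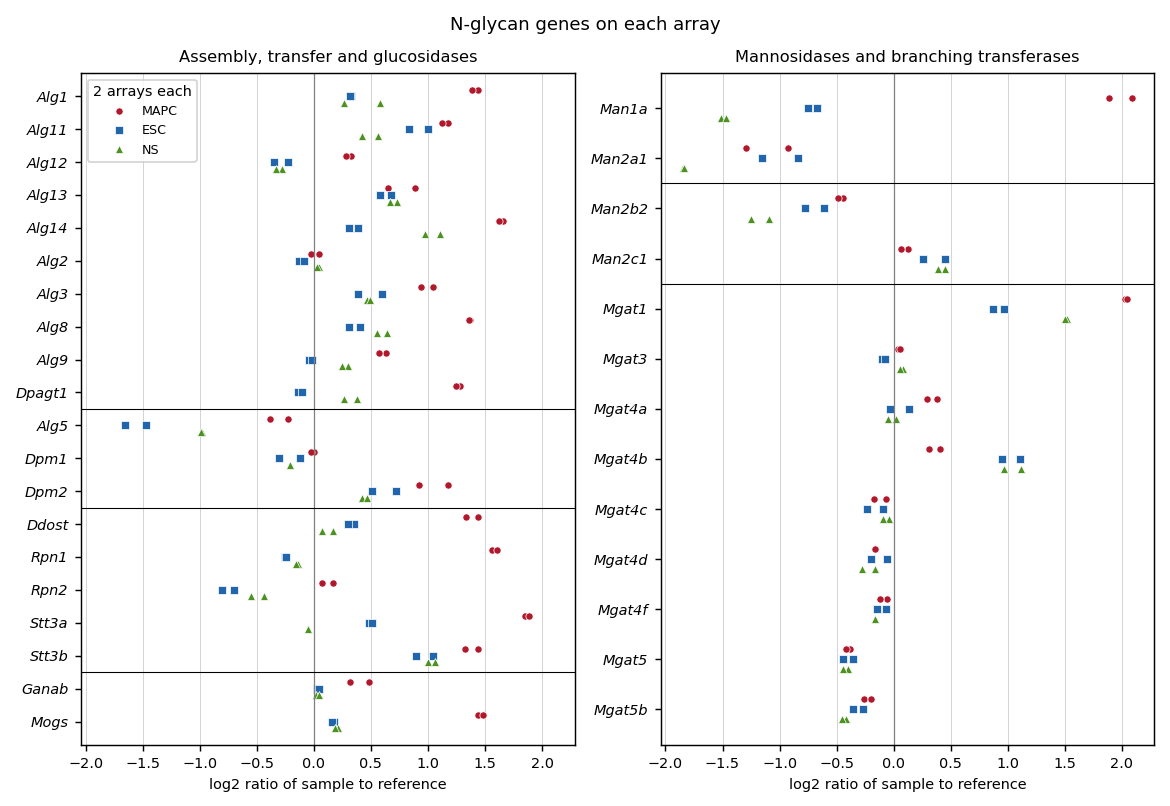
Log2 ratio of sample over reference on each of the 6 arrays for the 33 N-glycan genes, grouped by step, 1 point per array, with a colour and shape for each cell type. The MAPC points lie above both other groups for Dpagt1, Rpn1, Stt3a, Mogs and Man1a, and the groups lie together for Mgat5.

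The promoters were read for the ER stress response element, which pairs a CCAAT box with CCACG and is bound by ATF6 with NF-Y, because ER chaperones of glycoprotein folding are textbook targets of it. Windows of RefSeq promoters (build GRCm38.p6, from 250 bases before the start to 50 after it) were at hand for 35 members. The element was taken as CCAAT and CCACG with 9 bases of any kind between them, on either strand and in any window of a gene. It was found for 1 of these 35 members (2.86%), Alg12, and for 37 of 27025 genes with a window (0.137%). Among the other genes of the pathway it was found in 2 of 34 (5.88%), those of the lectin chaperones Calr and Canx. The 3 windows are shown with 25 bases on each side, 5′ to 3′ on the gene's strand and with the element in capitals. The Alg12 and Canx elements read forwards, and that of Calr reads in the reverse direction. All 3 genes lie on the minus strand.
Alg12, chr15:88819495-88819563: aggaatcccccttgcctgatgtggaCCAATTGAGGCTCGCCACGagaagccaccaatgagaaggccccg
Calr, chr8:84847050-84847118: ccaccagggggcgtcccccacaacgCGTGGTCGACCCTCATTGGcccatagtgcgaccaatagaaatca
Canx, chr11:50325775-50325843: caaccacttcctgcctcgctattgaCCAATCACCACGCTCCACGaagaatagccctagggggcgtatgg

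The Alg12 element lies 202 to 220 bases before the start, the Calr element 144 to 162 and the Canx element 127 to 145. Calr was 1.27 higher in MAPC than in ESC and 1.75 higher than in NS, and Canx 0.29 (adjusted p = 0.00268) and 0.11 (adjusted p = 0.124). The CCAAT box alone, which the element contains, was found for 20 of the 35 members with a window (57.1%). It was found for 14 of the 22 of them that were higher in MAPC than in ESC (63.6%). Of all genes with a window, 41.1% had it. A second element of the same response, TGACGTGG, was found for 1 of the 35 members, Pigp, and for 0.714% of all genes with a window. These are matches of letters in a window and show no binding.

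Dolichol-phosphate sugars feed the lumenal steps. Alg5, which makes dolichol-phosphate-glucose, read -0.38 and -0.22 in MAPC, -1.66 and -1.47 in ESC and -0.98 and -0.99 in NS, so that the groups did not overlap. It was 2.40-fold higher in MAPC than in ESC (1.26 ± 0.080, adjusted p = 9.51e-06) and 0.69 higher than in NS (adjusted p = 0.000225), and a second Alg5 probe gave 1.28 and 0.83. Dolichol-phosphate-mannose synthase differed less. Its catalytic subunit Dpm1 read -0.0028 and -0.030 in MAPC, -0.12 and -0.31 in ESC and -0.21 and -0.21 in NS. It was above the brightest negative control spot on 4 of 6 arrays. Both MAPC arrays were highest, yet the differences of 0.20 and 0.19 were not called (adjusted p = 0.0565 and 0.0569), and with a replicate block they were (adjusted p = 0.0462 and 0.0463). The regulatory subunit Dpm2 was 0.43 higher in MAPC than in ESC (adjusted p = 0.0112), a call held in 10 of 15 alternative analyses, and 0.60 higher than in NS.

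The core subunits of the oligosaccharyltransferase that the rule takes in, Stt3a, Stt3b, Ddost, Rpn1 and Rpn2, were higher in MAPC in both comparisons, 5 of 5. Of 4 accessory subunits outside the rule, 3 were higher in MAPC than in ESC, but 1 was higher and 1 lower than in NS. Rpn1 (ribophorin I), which helps present substrates to the enzyme, read 1.56 and 1.60 in MAPC, -0.25 and -0.25 in ESC and -0.14 and -0.15 in NS. Its background-subtracted Cy3 intensities were 41055 and 39684 in MAPC, 9067 and 9308 in ESC and 8180 and 8970 in NS, so the MAPC arrays were several times brighter before any normalization between dyes. The difference was 1.83 ± 0.051 from ESC, 3.55-fold (adjusted p = 1.50e-07), and 1.73 ± 0.051 from NS, 3.32-fold (adjusted p = 1.09e-07), while ESC and NS differed by -0.10 (adjusted p = 0.187).

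The active site of the enzyme exists in alternative forms. Stt3a, the catalytic subunit that works with the translocon while a protein is still being made, read 1.85 and 1.89 in MAPC, 0.48 and 0.51 in ESC and -0.06 and -0.05 in NS. The groups were stepped without overlap: MAPC exceeded ESC 2.59-fold (1.37 ± 0.051, adjusted p = 5.65e-07) and NS 3.80-fold (1.92 ± 0.051, adjusted p = 6.46e-08), and ESC exceeded NS by 0.55 (adjusted p = 7.06e-05). Stt3b, the catalytic subunit that also modifies sites left over after synthesis, read 1.32 and 1.44 in MAPC, 0.90 and 1.04 in ESC and 1.00 and 1.06 in NS. MAPC was again highest, by 0.41 ± 0.071 from ESC (adjusted p = 0.00237) and 0.35 ± 0.071 from NS (adjusted p = 0.00463), and ESC and NS overlapped.

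Ddost, a subunit that stabilizes the complex, read 1.34 and 1.44 in MAPC, 0.35 and 0.30 in ESC and 0.17 and 0.07 in NS. It was 2.09-fold higher in MAPC than in ESC (1.06 ± 0.063, adjusted p = 6.62e-06) and 2.41-fold higher than in NS (adjusted p = 1.67e-06). Rpn2 (ribophorin II) was 0.87 and 0.61 higher in MAPC. The differences between ESC and NS were small for both, 0.21 for Ddost and -0.26 for Rpn2, and although called, they kept the call in 6 of 15 and 10 of 15 alternative analyses.

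Both ER glucosidases were higher in MAPC. Mogs, which removes the outermost glucose, read 1.44 and 1.48 in MAPC, 0.18 and 0.16 in ESC and 0.21 and 0.18 in NS. MAPC stood 2.45-fold above ESC (1.29 ± 0.052, adjusted p = 8.08e-07) and 2.40-fold above NS (1.26 ± 0.052, adjusted p = 5.72e-07), and ESC and NS differed by -0.03 (adjusted p = 0.761). Ganab, the catalytic subunit of the glucosidase that takes off the remaining glucoses, read 0.32 and 0.49 in MAPC, 0.03 and 0.05 in ESC and 0.02 and 0.04 in NS. Its differences of 0.37 ± 0.067 (adjusted p = 0.00322) and 0.37 ± 0.067 (adjusted p = 0.00248) were smaller in value, and its second probe gave 0.50 and 0.58.

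Man1a, a Golgi mannosidase that trims the oligosaccharide before branching, differed most of all members in both MAPC comparisons. Its ratios were 1.89 and 2.09 in MAPC, -0.67 and -0.75 in ESC and -1.51 and -1.47 in NS. The groups did not overlap, and MAPC was 6.48-fold above ESC (2.70 ± 0.076, adjusted p = 1.56e-07) and 11.2-fold above NS (3.48 ± 0.076, adjusted p = 2.83e-08). ESC were above NS by 0.78 (adjusted p = 9.24e-05). A single probe of 60 bases measured the gene. Its 5′ end is shown because the largest difference rests on it, with the first 30 bases as the deposited arrays list them.
Man1a probe: tttcataatagaaccgtctaccagtgacct

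Man2a1, the Golgi mannosidase that acts after Mgat1, gave readings that depended on the probe. The brighter probe read -1.30 and -0.93 in MAPC, -1.15 and -0.83 in ESC and -1.84 and -1.84 in NS. MAPC and ESC overlapped (difference -0.12, adjusted p = 0.555), and both were above NS, by 0.73 (adjusted p = 0.00312) and 0.85 (adjusted p = 0.00157). The other probe gave 0.16 for MAPC over ESC (adjusted p = 0.0448), 0.16 for MAPC over NS (adjusted p = 0.0444) and -0.0046 for ESC over NS (adjusted p = 0.963). The other probe was dimmer, with background-subtracted Cy3 intensities of 131 to 228 over the 6 arrays against 732 to 1836 for the brighter one. The longest run of bases that the 2 probes share is 4. Their places in the transcript were not determined, and the first 30 of 60 bases of each are given.
Man2a1 brighter probe: aagaaaatgctgtatgatgttagaagacat
Man2a1 other probe: ctgcagtcctctctaccttgtgatatccat

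The catabolic mannosidases did not share one direction. Man2b2, a lysosomal enzyme, was 0.70 higher in MAPC than in NS and 0.22 higher than in ESC, the latter not called (adjusted p = 0.0619) but called with a replicate block (adjusted p = 0.0195). Man2c1, the cytosolic enzyme that degrades free oligosaccharides, was lower in MAPC, with differences of -0.26 from ESC (adjusted p = 0.0287) and -0.32 from NS (adjusted p = 0.00970). The call against ESC held in 8 of 15 alternative analyses. Man2b2 was above the brightest negative control spot on 3 of 6 arrays.

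Among the branching transferases only Mgat1 differed by 2-fold or more. Mgat1, whose product opens the way to hybrid and complex glycans, read 2.03 and 2.05 in MAPC, 0.87 and 0.96 in ESC and 1.52 and 1.51 in NS. The groups stood apart in that order: MAPC was 2.18-fold above ESC (1.12 ± 0.056, adjusted p = 2.60e-06), MAPC was 0.52 above NS (adjusted p = 0.000134), and ESC was below NS (difference -0.60, adjusted p = 7.41e-05). Mgat4b, which adds a branch to the mannose arm that Mgat1 starts, went the other way, with differences of -0.67 from ESC (adjusted p = 0.000312) and -0.68 from NS (adjusted p = 0.000220).

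Mgat5, which makes the tetra-antennary branch, read -0.38 and -0.42 in MAPC, -0.44 and -0.36 in ESC and -0.40 and -0.45 in NS, and all 3 groups overlapped. Mgat3, which adds the bisecting N-acetylglucosamine, read 0.04 and 0.06 in MAPC, -0.10 and -0.08 in ESC and 0.08 and 0.06 in NS. ESC lay lowest, and the difference of -0.16 from NS (adjusted p = 0.0379) was called, but in 7 of 15 alternative analyses. Several of these genes were dim. Mgat4a was above the brightest negative control spot on 1 of 6 arrays, Mgat3, Mgat4c and Mgat4d on 2, and Mgat5b on 5. Mgat4a was 0.28 higher in MAPC than in ESC and 0.35 higher than in NS, and Mgat5b 0.21 higher than in NS. The Mgat4a call against ESC held in 10 of 14 alternative analyses, with values from 0.059 to 0.816, and the Mgat5b call in 10 of 15, with values from 0.074 to 0.551. Mgat4c, Mgat4d and Mgat4f were not called in any comparison.

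The GPI genes were mixed. Of 8 measured, 4 were higher (50%) and 1 was lower (12.5%) in MAPC than in ESC, beside 15.9% and 22.1% of all genes. Against NS, 4 were higher (50%) and 2 lower (25%), beside 21.2% and 22.5%, so the share of lower genes was near that of all genes. Pigf, which acts with Pigo in adding ethanolamine phosphate to the last mannose of the core, read 0.28 and 0.28 in MAPC, -0.43 and -0.32 in ESC and -1.30 and -1.27 in NS. The groups were stepped without overlap, with MAPC 0.65 ± 0.058 above ESC (adjusted p = 6.15e-05) and 2.95-fold above NS (1.56 ± 0.058, adjusted p = 3.51e-07), and ESC 0.91 above NS (adjusted p = 8.87e-06). Pigo held the same order, 0.32 above ESC (adjusted p = 0.0169) and 0.95 above NS (adjusted p = 3.49e-05).

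The opposite pattern was seen in subunits of the enzyme that starts the anchor by adding N-acetylglucosamine to phosphatidylinositol. Pigp, one of these subunits, read -0.79 and -0.91 in MAPC, -1.05 and -0.98 in ESC and 0.80 and 0.82 in NS. NS stood far above both others: MAPC was 3.15-fold lower (difference -1.66 ± 0.062, adjusted p = 3.60e-07) and ESC 3.53-fold lower (difference -1.82 ± 0.062, adjusted p = 3.66e-07). The second Pigp probe, whose longest run of bases shared with the first is 5, gave -1.27 and -1.49. The first 30 of 60 bases of each are given, since both carry this NS difference.
Pigp brighter probe: gccaaagaactcaatacctaaaactgagct
Pigp other probe: cttgtgtgggctttcgttcccgaatcttgg

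RefSeq gives Pigp several starts, with 4 windows, and 1 of the 4 held the TGACGTGG element. It lies in the reverse direction, 91 to 98 bases before that start on the minus strand and within the span of transcripts that start farther upstream, and is shown again with 25 bases on each side.
Pigp, chr16:94370776-94370833: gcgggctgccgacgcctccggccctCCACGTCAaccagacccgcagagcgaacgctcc

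Pigc, another subunit of the starting enzyme, was lower in MAPC than in ESC (difference -0.26, adjusted p = 0.00912) and lower than in NS (difference -0.86, adjusted p = 8.88e-06). Pigq, a further subunit, was 0.73 higher in MAPC than in ESC and 0.30 higher than in NS (adjusted p = 0.0338), the latter call held in 6 of 15 alternative analyses. The Pigc difference from ESC and the Pigq difference from NS turned sign when the Cy3 channel was used without the reference, to 0.019 and -0.0089 (adjusted p = 0.934 and 0.961). The members of this one enzyme thus did not move in one direction.

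The transamidase joins the finished anchor to protein. Of its 3 measured subunits that the rule takes in, only Pigs was called in any comparison. A further subunit outside the rule, Gpaa1, was 0.70 higher in MAPC than in ESC (adjusted p = 0.000467). Against NS it was 0.52 higher (adjusted p = 0.00197). Pigk, the catalytic subunit of the transamidase, read -0.71 and -0.66 in MAPC, -0.80 and -0.64 in ESC and -0.84 and -0.85 in NS. MAPC and ESC overlapped and no comparison was called (adjusted p = 0.727, 0.0943 and 0.210). Pigt ranged from 4.07 to 4.35 over the 6 arrays and was not called. Pigs was 0.58 higher in MAPC than in ESC and 0.38 higher than in NS, and its difference of -0.21 between ESC and NS was not called (adjusted p = 0.0756), whereas it was with a replicate block (adjusted p = 0.0199).

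**Figure D3:**
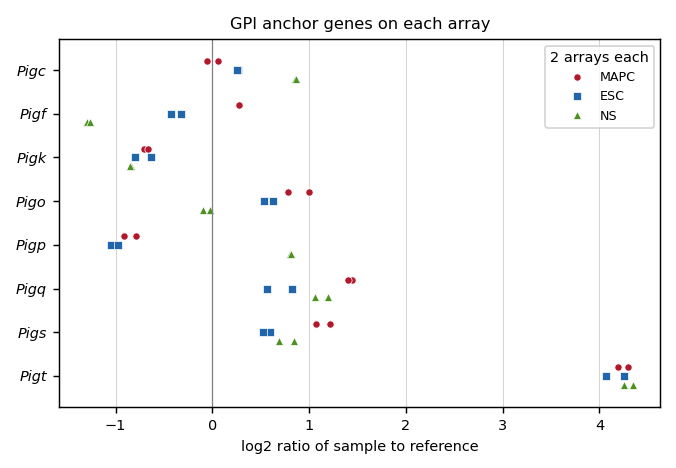
Log2 ratio of sample over reference on each of the 6 arrays for the 8 GPI genes, 1 point per array, with a colour and shape for each cell type. NS points are highest for Pigp (0.80 and 0.82) and lowest for Pigf (-1.30 and -1.27), and the groups lie together for Pigk and Pigt.

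Of 58 further genes of these pathways that are not members by the rule, 40 were tested. In MAPC 25 of 40 were higher than in ESC (62.5%) and 5 were lower (12.5%), and 22 were higher and 11 lower than in NS. All genes gave 15.9% and 22.1% in the first comparison and 21.2% and 22.5% in the second. Between ESC and NS, 13 were higher (32.5%) and 15 lower (37.5%), beside 19.8% and 18.4% of all genes. The enzymes that supply the sugars were higher in MAPC than in NS for 7 of 9 genes, and higher than in ESC for 6 of 9, with Gfpt2 and Pmm1 lower in both. Those that supply and flip dolichol were higher in MAPC for 3 of 5 against ESC and 4 of 5 against NS, and Dhdds was lower against NS (-0.35).

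Gfpt1 and Gfpt2, which catalyse the same committed step of hexosamine synthesis, went in opposite directions. Gfpt1 read 2.42 and 2.49 in MAPC, -0.07 and -0.00040 in ESC and -0.89 and -0.91 in NS. Gfpt2 read -0.41 and -0.42 in MAPC, 2.81 and 2.74 in ESC and 1.81 and 1.91 in NS. MAPC thus had Gfpt1 5.64-fold above ESC (adjusted p = 5.43e-08) and Gfpt2 9.11-fold below (adjusted p = 2.85e-08). Against NS the differences were 3.36 for Gfpt1 and -2.27 for Gfpt2. Downstream, Pgm3 was 0.92 and 1.02 higher in MAPC, Uap1 was 0.65 and 1.12 higher, and Gnpnat1 was 1.52 higher than in NS but was not called against ESC (-0.20, adjusted p = 0.119).

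In the mannose branch, Gmppb, which makes GDP-mannose, was 1.21 higher in MAPC than in ESC and 2.07 higher than in NS, and the phosphomannomutase Pmm1 was lower (-1.79 and -0.81). Ostc, a subunit of the Stt3a form of the oligosaccharyltransferase, was 1.71 and 1.36 higher in MAPC. Krtcap2, another, and Magt1, of the Stt3b form, were 0.83 and 0.91 higher than in ESC, and their differences of 0.10 and 0.17 from NS were not called (adjusted p = 0.204 and 0.0582). Tusc3, an oxidoreductase of the Stt3b form, was higher in NS than in both others, with -1.56 for MAPC, which rests on 1 MAPC array because the other spot was an outlier, and -1.73 for ESC.

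Of the ER quality control genes tested, 5 of 5 were higher in MAPC than in ESC, and 3 of 5 were higher and 1 lower than in NS. Edem1 and Edem2, which direct misfolded glycoproteins to degradation, were 1.14 and 1.62 higher in MAPC than in ESC and 1.71 and 1.59 higher than in NS. Calr, given above, read 1.86 and 1.88 in MAPC, 0.53 and 0.68 in ESC and 0.18 and 0.06 in NS.

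Genes that finish the antennae divided by enzyme. Fut8, which adds the core fucose, read 2.57 and 2.60 in MAPC, -0.12 and -0.11 in ESC and 0.86 and 0.87 in NS, a 6.50-fold difference from ESC (2.70 ± 0.050, adjusted p = 2.79e-08) and a 3.30-fold difference from NS. St6gal1, a sialyltransferase, was lowest in MAPC, with differences of -1.64 from ESC and -2.27 from NS, whereas St3gal4, which links sialic acid in another position, was 1.11 and 0.81 higher. The polysialyltransferase St8sia4 was lower than in NS both in MAPC (difference -1.14) and in ESC (difference -1.38). St8sia3 was lower in MAPC than in ESC (-1.04) and NS (-0.78). Sizes depended on the processing. Over the analyses run, St8sia3 ranged from -1.92 to -0.27 against ESC and from -1.76 to -0.18 against NS. St6gal1 ranged from -2.43 to -0.62 and from -3.13 to -1.02.

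The galactosyltransferases differed among themselves. B4galt1 was 0.70 higher in MAPC than in ESC and 1.32 higher than in NS, again on 1 MAPC array, and B4galt3 was 0.94 and 1.05 higher. B4galt2 was highest in NS, with -1.62 for MAPC and -1.47 for ESC. Of genes that act on finished GPI anchors, Gpld1, a phospholipase that cleaves them, read 0.30 and 0.48 in MAPC, -3.89 and -3.52 in ESC and -3.84 and -3.75 in NS. This was the largest difference of the 40, 4.09 from ESC (adjusted p = 1.86e-07) and 4.18 from NS (adjusted p = 9.45e-08). Pgap6 was lower in MAPC than in ESC (-1.99) and was higher in ESC than in NS (2.07).

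**Figure D4:**
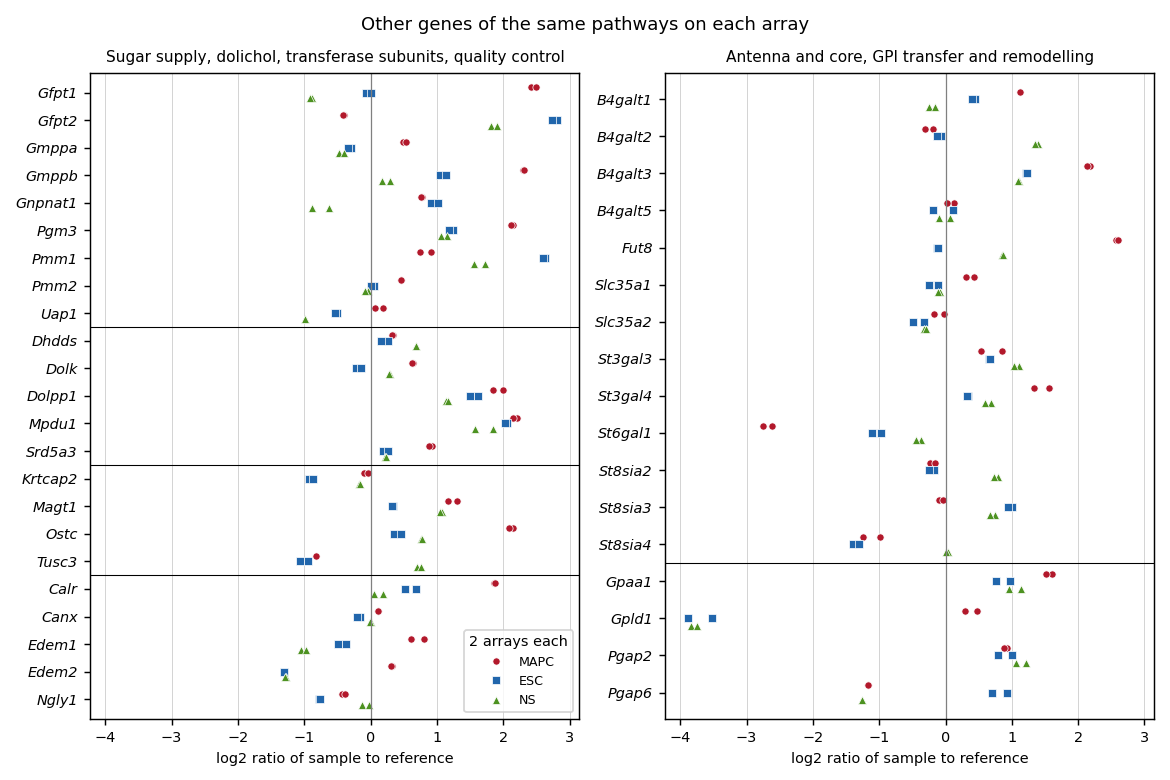
Log2 ratio of sample over reference on each of the 6 arrays for the 40 tested pathway genes outside the rule, 1 point per array, with a colour and shape for each cell type. Gfpt1 and Gfpt2 show opposite orders of MAPC against both other groups, and Gpld1 is near -3.5 or lower in ESC and NS.

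Markers of other cells also differed between the groups. Of 7 fibroblast markers with a probe, 5 were lower in MAPC than in ESC and 0 were higher. The summed Cy3 intensity of all 7 ranged from 22870 to 26020 in MAPC, from 40570 to 47430 in ESC and from 72250 to 73190 in NS. The order of ESC and NS in these sums was not that of most single markers. Gene by gene, 5 of the 7 were higher in ESC than in NS, Postn by the most (3.73), and 1, Vim, was lower (-1.49). Postn and Lox were under the brightest negative control spot in MAPC. The sums for 7 neural progenitor markers were 314.7 to 355.2 in MAPC, 9987 to 10740 in ESC and 89120 to 94400 in NS. Of these markers, 4 (Sox2, Pax6, Hes5 and Ptprz1) were under the brightest negative control spot in MAPC. Between ESC and NS, 5 of the 7 were lower in ESC and 0 were higher. Sox2, which is also on the list of ESC markers, was not called there (difference -0.08, adjusted p = 0.304). The sums for 7 ESC markers were 5537 to 6486 in MAPC, 82920 to 83470 in ESC and 13650 to 17520 in NS. Gene by gene, 4 of these 7 (Dppa5a, Zfp42, Pou5f1 and Utf1) were higher in MAPC than in NS and 2 were lower, Sox2 by the most. For 4 neuron markers they were 6225 to 8034, 25530 to 27020 and 9236 to 9889 in the same order, although Tubb3 was higher in MAPC than in ESC (0.96) and NS (1.95). For 3 leukocyte markers they were 203.7 to 266.8, 1429 to 1704 and 234.7 to 252.5. Of these 3, only Lyz2 was called, with -2.98 for MAPC minus ESC and 2.98 for ESC minus NS. Ptprc and Itgam were not called in any comparison. The part of such cells in the differences of glycan genes was not tested.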

How the data were processed

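RNA of 6 cultures was measured on 2-colour Agilent mouse arrays. Per the file headers, the authors' deposited intensities came from Agilent Feature Extraction A.7.5.1. Per the labels, Cy3 held the sample and Cy5 the reference, and dyes were not swapped. The authors' deposited series matrix holds log10 values that, at 90.1% of the 39546 spots off its floor, equal the log ratio of Cy3 over Cy5 processed intensities plus a constant per spot; its column medians are 2.95 to 2.97, and the origin of the constant is unknown. Mean intensities were background-corrected (normexp, offset 50) and loess-normalized within arrays in limma 3.58.1 (R 4.3.3), as log2 sample over reference. These log2 ratios were computed here from the deposited intensities. Control spots and outlier-flagged spots were left out, the spots of a probe averaged, and a gene represented by its brightest probe. Probes well above background on both arrays of at least 1 group were kept. One fit held all 6 arrays (3 residual degrees of freedom), and p-values were adjusted by Benjamini-Hochberg over 35768 genes. Probes were named through RefSeq accessions (15294), symbols (23) or older symbols (112), and 25577 stayed unnamed.

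The replicate number coincides with the day of image extraction in the file headers. Deviations of same-numbered arrays were weakly correlated between groups (0.104, 0.163 and 0.208). All called members had the same sign on both days, as did all called genes measured on both, so this says nothing particular about the members. The p-values measure only the spread between these arrays.

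The members and lists were chosen with earlier results of these data known. Per-array values were given for members called and at least 2-fold apart in a comparison and for preset key genes of each step. Further pathway genes were named when called and at least 2-fold apart. Outside that criterion, Canx was named for its promoter, and Dhdds, Krtcap2, Magt1 and Gpaa1 beside other genes of their step or enzyme. Markers of ESC, NS, MAPC, fibroblasts, neurons and leukocytes were measured to check the labels. Promoters are from the RefSeq promoters of GRCm38.p6. Probe sequences are taken to read 5′ to 3′ along the transcript, since AATAAA was in 2864 of 41006 probes and its reversed letters in 1835. Probes were not placed in a genome. The fit was tested on simulated data.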

Additional observations from a re-analysis of the deposited data

How the results depend on the processing

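Counts of called members moved by under 1.5 times in every alternative run: from 23 to 28 for MAPC against ESC (27 as reported), from 28 to 33 for MAPC against NS (31) and from 14 to 21 for ESC against NS (19), the lowest with the sample channel alone. Leaving out 1 array gave 23 to 28, 28 to 30 and 15 to 18. With the replicate number as a block, members gave 28, 32 and 20 calls and other pathway genes 32, 35 and 30. Calls changed for the members Alg11, Dpm1, Man2b2 and Pigs. They also changed for St8sia4 and Tusc3, with MAPC over ESC differences of 0.24 (adjusted p = 0.0479) and 0.21. Tusc3 rests on 1 MAPC array, assumed to vary like the others. No other call changed among members and the pathway genes called and at least 2-fold apart. With the sample channel alone, Pigc in MAPC against ESC (0.019) and Pigq in MAPC against NS (-0.0089) reversed. Of the single-gene values under alternatives, 2694 stayed on the same side of the threshold, 91 lost the call and 35 gained it; 73 of the 2694 turned sign, none of them called before or after. A block for the day of image extraction was not run apart, as that day coincides with the replicate number. The number of members at least 2-fold higher in MAPC was less stable: 4 to 11 against ESC (11 as reported) and 4 to 11 against NS (6). The cause of these changes was not tested. Precision is limited by 2 arrays a group and, for dim members, by signal near that of negative controls.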
